A study of Mus musculus with 12 samples.

Results

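Immediate early high basal wells are single cells of mouse back skin epidermis in which 9 stress and growth response genes together took a large share of the ribosome footprints. They were chosen from the measured counts. A well had to hold at least 100 counts, and Fos, Jun, Junb, Egr1, Ier2, Atf3, Nr4a1, Zfp36 and Btg2 had to make up at least 3 counts and 2% of its total. The keratins Krt1, Krt10, Krt5 and Krt14 had to reach 5 counts, with Krt1 and Krt10 below 0.5 of their sum, and wells with 1% or more of the follicle genes Krt79, Krt17 and Cst6 were left out. The rule gave 171 wells among 1128 basal wells and 1906 wells of at least 100 counts. The other 957 basal wells, below 2%, served for comparison and are called low. Because the rule used these 16 genes, their levels are a description and none was tested.

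The series counted ribosome footprints, the stretches of mRNA shielded by a ribosome, in single epidermal cells of female C57Bl/6 mice of 2 months (young) and 22 to 26 months (old). Every animal, young or old, received cycloheximide, which halts ribosomes on the mRNA, by tail vein shortly before death. The skin was then kept in cycloheximide and digested with trypsin for 37 minutes at 37 °C, and live single cells were sorted into plates with no gate on Sca-1. The labels name 10 such plates by postnatal day. All plates that share an age and a day are assumed here to come from 1 animal: P57, P59 and P60 were young, and P662, P722 and P758 old. No mRNA libraries were used, so a level joins the amount of an mRNA with the ribosomes on it.

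Immediate early genes are the first to be transcribed after a growth factor, wounding, ultraviolet light or the handling of tissue, and they need no new protein to be switched on. Serum response factor acts on them through the CArG box and CREB through the cyclic AMP response element (CRE), and many encode subunits of AP-1, a transcription factor of Fos and Jun family proteins. Their products include inhibitors that end the response, such as phosphatases and RNA-binding proteins that destabilise mRNA. Basal keratinocytes are the dividing layer of the epidermis, attached to the basement membrane by hemidesmosomes.

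The members were spread unevenly over the plates. P758 gave 105 of them, 49 and 56 from its 2 plates, and P662 gave 40, with 35 and 5 from its plates. P60 gave 19, with 6, 7 and 6 from its 3 plates, P59 gave 6, P722 gave 1 and P57 gave none. The members held a median of 805 counts per well and the low wells 1130. Depth did not differ in 1 direction: the medians of high and low wells were 237 and 367 in P662, 1094 and 815 in P758, 271.5 and 271 in P59, and 835 and 1485 in P60. Of 384 barcodes, 383 occurred in more than 1 plate, because a barcode marks a well position here and not a cell. No pair of plates agreed within counting noise, with a chi-square per degree of freedom of at least 1.188. Pairs assumed to share an animal had 1.714 (P662), 1.988 (P758) and 2.372, 3.011 and 3.415 (P60). Pairs of different animals had 1.188 to 5.933, so this statistic does not test that assumption.

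The 9 selection genes were seldom represented by 1 gene in a member. A median of 8 of the 9 were detected per member, 48 members held all 9 and 47 held 8. Fos, the AP-1 subunit, had the highest count in 49 members, Egr1, a zinc finger transcription factor, in 28, Junb in 15 and Jun in 12. Ier2 and Zfp36 led in 9 each, Atf3 and Nr4a1 in 7 each and Btg2 in 1, and 34 members had a tie. The median share of the 9 genes was 3.19% in the members, from 2.01% to 9.25%, against 0.25% in low wells. The 10 members nearest the threshold held 2.006% to 2.107% and the 10 low wells nearest below it 1.907% to 1.99%, so the classes are 2 stretches of a continuous range.

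**Figure D1:**
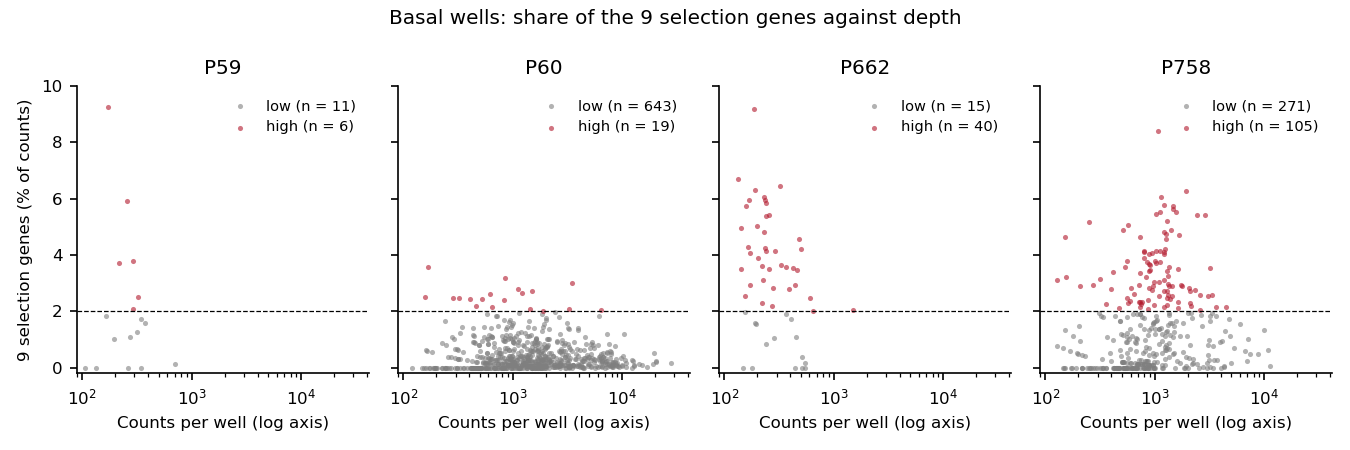
Each point is a basal well of P59, P60, P662 or P758, with its total count on a log axis and the 9 selection genes as a percentage of that count. Red points are high and grey points low, the dashed line is the 2% threshold, and wells lie on both sides close to it in all 4 animals.

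Levels are given in CPM, counts scaled to the same total in every group of wells. For the selection genes CPM refer to all counts, and elsewhere to the counts left after the 16 genes of the rule were removed. Fos had 6730 CPM in the high wells of P662, 6024 in P758, 9091 in P59 and 5166 in P60. Over these 4 animals its mean was 6753 ± 1685 CPM in high and 936.6 ± 349.8 in low wells (SD, n = 4 animals here and below). Nr4a1, an orphan nuclear receptor, had 4135 CPM in P662, 2374 in P758, 1948 in P59 and 626.1 in P60. Its spread and that of Btg2 between animals were wide, and most of the 9 genes were lowest in P60. Atf3, a stress-induced transcription factor of the ATF family, had 2850 ± 805 CPM in high and 553.5 ± 480 in low wells. Zfp36, which destabilises mRNA with AU-rich elements, had 4085 ± 1287 and 556.0 ± 146 CPM. Btg2, an antiproliferative deadenylase partner, had 2649 ± 2204 and 349.7 ± 218 CPM. These gaps follow from the selection.

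Ccn1 and Thbs1, secreted matrix proteins named as markers of these wells with earlier results known, are also only described, although the fit below counts them among the genes it called higher. Ccn1 had 2473 CPM in the high wells of P662, 1836 in P758, 0 in P59 and 1619 in P60. Its low wells held 0, 388.7, 332.8 and 266.6 CPM in the same order, so P59, where 1 count is worth 719.9 CPM in high wells, ran the other way. Thbs1 had 5742, 876.1, 2160 and 705.9 CPM in high and 1028, 648.8, 2995 and 207.2 CPM in low wells. It was therefore higher in 3 of 4 animals with overlapping ranges, and mainly in P662. With the threshold at 5% its log2 difference turned to -0.078.

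Of the basal markers that the rule did not use, Col17a1, a hemidesmosome collagen, had 11748 ± 732.5 CPM in high and 9052 ± 1995 CPM in low wells. Krt15, a basal keratin, had 12597 ± 6363 and 15872 ± 4732 CPM. Both were among the most abundant genes tested in both classes, while low Krt1, Krt10 and Krt79 follow from the rule.

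How often basal wells were in the high class was compared between ages. It was 27.9% in P758 (105 of 376 wells, 95% exact interval 23.4% to 32.8%) and 72.7% in P662 (40 of 55, 59.04% to 83.9%). In P722 it was 6.25% (1 of 16, 0.158% to 30.2%). Among young animals it was 2.87% in P60 (19 high and 643 low wells, 1.74% to 4.45%) and 35.3% in P59 (6 of 17, 14.2% to 61.7%). In P57 it was 0 of 2 wells, with an upper limit of 84.2%. Intervals cover counting error only. The ages overlapped, with P59 above P758 and P722 near P60. The mean of the 3 old animals was 35.6% ± 33.9 and that of the 3 young ones 12.7% ± 19.6 (SD), a difference of 22.9 percentage points (two-sided exact permutation test over animals, p = 0.5, where 3 against 3 cannot go below 0.1). Without P662 the difference was 4.37 points.

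Plates of 1 animal were close to each other in P758 and P60. The 2 plates of P758 had 27.4% and 28.4%, and the 3 plates of P60 had 2.69%, 3.10% and 2.82%. The 2 plates of P662 stood further apart, at 79.5% and 45.5% with 44 and 11 basal wells. Wells with spinous keratins followed a like order, with 59.4% high in P662 (38 of 64), 50.0% in P59 (5 of 10), 17.8% in P758 (32 of 180) and 0.541% in P60 (1 of 185). No spinous well was high in P722 (0 of 10) or P57 (0 of 3). P662 and P59, with the highest shares, had shallow members, as had P722 with a low share and 1 member of 124 counts. When each well was thinned to 200 counts, leaving out shallower wells and those that then missed the keratin minimum, the share was 70.0% in P662 (21 of 30), 33.8% in P758 (89 of 263), 50.0% in P59 (5 of 10), 5.62% in P60 (23 of 409) and 0 of 12 in P722. The unthinned wells of at least 200 counts gave 73.7%, 28.3%, 41.7%, 2.63% and 0%, so the order of the animals stayed. The difference between the ages was then 6.80 points, and P57 had no basal well left.

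**Figure D2:**
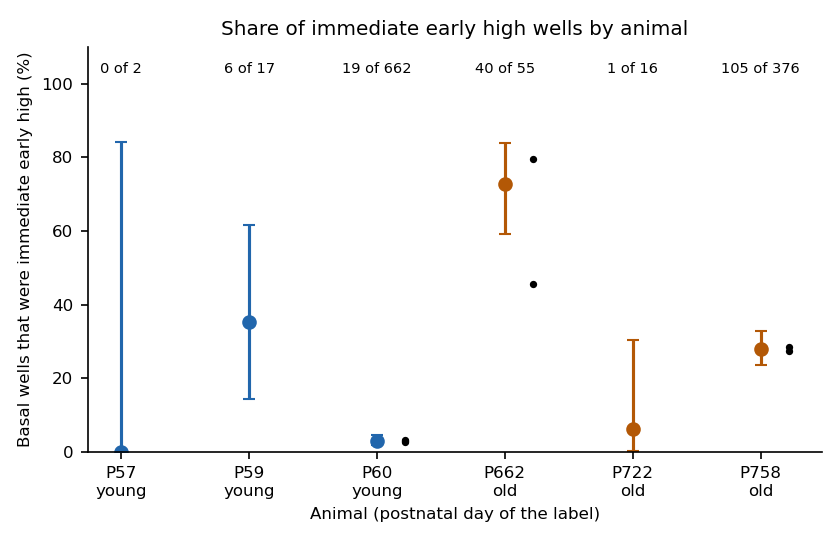
Share of basal wells in the high class (%) by animal, with exact 95% intervals and the number of wells above; blue is young and orange old, and black points show single plates where an animal has several. P59, a young animal, lies at 35.3% above P758 at 27.9%, and P60 lies at 2.87%.

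Which other genes differed between high and low basal wells was tested on counts summed per animal and class, with the animal as a block. P662, P758, P59 and P60 had at least 5 wells in both classes and entered the fit. Of 489 genes tested, 37 passed an adjusted p of 0.05 (7.57% of genes tested), 26 higher (5.32%) and 11 lower (2.25%) in high wells (edgeR quasi-likelihood test, Benjamini-Hochberg). Of these, 27 had the same sign in all 4 animals. DESeq2 called 22. Dusp1, Fosb, Dnajb1 and Apoe, and the marker Ccn1, passed with each animal left out in turn. The calls of 7 genes, App, Chd2, Clk1, Ddx5, Kdm6b, Klf4 and Sun2, were lost whichever animal was left out. The count was 6 without P60, 7 without P758, 34 without P662 and 53 without P59. Of these, 6, 6, 20 and 29 in that order were among the 37. A count in P59 is worth 719.9 CPM in high and 332.8 CPM in low wells, so its values rest on few reads.

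Many of the genes that rose are early response genes. Leaving out Ccn1 and Thbs1, 87 further early genes were held in 4 lists (AP-1 subunits, early transcription factors, feedback inhibitors, secreted and surface factors). Of these, 14 were deep enough to test, and 10 rose (5.32% of all genes tested did) and none fell, with a median log2 difference of 1.55 against -0.02 over all genes tested. DESeq2 called 8 of the 14. Only tested members are counted here, and genes high in one class are more likely to be deep enough. These lists and those below were drawn up with earlier results of these data known, so their counts are a description and not a test. Together the 4 lists, Ccn1 and Thbs1 included, took 2.95% of counts in the high wells of P662, 2.04% in P758, 2.66% in P59 and 1.85% in P60. In low wells they took 0.925%, 0.936%, 1.60% and 0.691% in the same order, and the ranges did not overlap.

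Dusp1, a nuclear phosphatase that switches off MAP kinases, passed at the lowest p. It had 1767 CPM in the high wells of P662, 2948 in P758, 2880 in P59 and 3820 in P60. In low wells it had 411.1, 826.0, 332.8 and 512.0 CPM, so that every high value lay above every low one. The log2 difference was 2.35 ± 0.26 (SE; adjusted p = 2.73e-16). The plates of P758 and P60 and the larger plate of P662 ran the same way, with 2719 and 3131 CPM in high and 928.1 and 760.3 CPM in low wells of the P758 plates. In the P60 plates it had 3663, 4573 and 2739 CPM in high and 483.3, 492.8 and 619.7 CPM in low wells. The larger plate of P662 had 1956 CPM (19 counts) in high and 0 in low wells. Its smaller plate ran the other way, with 622.7 CPM (1 count) in high and 1128 CPM (2 counts) in low wells.

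Dusp1 is also one of the genes whose promoter carries an exact CRE. The 250 bases before the start were taken from RefSeq (GRCm38.p6) for 25 of 34 genes looked up, 7 selection genes and 18 called higher. They were searched on both strands for the CRE TGACGTCA, the AP-1 site TGANTCA and the CArG box. None of these patterns contains another. The promoters below are shown because they hold a CRE or, for Zfp36, a CArG box, in capitals. Dusp1 lies at chr17:26508473-26508722, Ccnl1 at chr3:65958250-65958499, Ppp1r15a at chr7:45526269-45526518, Btg2 at chr1:134079156-134079405 and Zfp36 at chr7:28379229-28379478, all on the minus strand and written 5′ to 3′ along the gene.
Dusp1: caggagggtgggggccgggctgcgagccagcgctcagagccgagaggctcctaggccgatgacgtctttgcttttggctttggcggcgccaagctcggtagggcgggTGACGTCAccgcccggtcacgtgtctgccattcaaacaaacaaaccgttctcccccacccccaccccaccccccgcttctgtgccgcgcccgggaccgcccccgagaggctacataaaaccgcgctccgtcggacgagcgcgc
Ccnl1: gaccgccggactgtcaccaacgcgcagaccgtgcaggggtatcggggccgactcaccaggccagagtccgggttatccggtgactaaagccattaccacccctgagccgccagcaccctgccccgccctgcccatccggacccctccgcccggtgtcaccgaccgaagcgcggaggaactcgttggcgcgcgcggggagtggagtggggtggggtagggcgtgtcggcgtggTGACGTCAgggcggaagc
Ppp1r15a: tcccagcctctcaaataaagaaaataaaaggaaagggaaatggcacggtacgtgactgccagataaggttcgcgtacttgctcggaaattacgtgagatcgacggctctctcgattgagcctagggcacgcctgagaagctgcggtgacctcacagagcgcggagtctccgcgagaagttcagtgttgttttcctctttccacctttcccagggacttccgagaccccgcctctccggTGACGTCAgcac
Btg2: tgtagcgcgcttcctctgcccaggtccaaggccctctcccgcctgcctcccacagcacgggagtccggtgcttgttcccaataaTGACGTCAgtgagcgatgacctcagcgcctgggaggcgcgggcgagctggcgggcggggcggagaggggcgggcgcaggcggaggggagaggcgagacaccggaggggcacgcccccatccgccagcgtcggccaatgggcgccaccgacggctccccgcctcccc
Zfp36: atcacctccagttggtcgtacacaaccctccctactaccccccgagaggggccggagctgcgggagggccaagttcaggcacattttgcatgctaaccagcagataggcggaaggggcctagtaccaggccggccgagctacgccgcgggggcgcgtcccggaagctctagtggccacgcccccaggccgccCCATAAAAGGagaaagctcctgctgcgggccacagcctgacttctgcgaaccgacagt

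In these sequences the CRE begins 143 bases before the start in Dusp1, 18 in Ccnl1, 12 in Ppp1r15a and 166 in Btg2. The CArG box of Zfp36 begins 58 bases before it. A CRE was thus found in 3 of 18 genes called higher and 1 of 7 selection genes, where 1.55% of 32851 promoters hold one. A gene counts here if any of its start sites holds the motif, while the background counts each promoter. The units therefore differ for genes with more than 1 start site, such as Tnfaip3. An AP-1 site was found in 2 of the 18, Tnfaip3 and Mt2, and in none of the 7, against 6.75% of promoters. A CArG box was found in none of the 18 and 1 of the 7, against 1.47%. The Fos window held none of the 3 as spelled.

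Among AP-1 subunits outside the rule, Fosb and Jund were tested and both rose. Fosb had 3092 CPM in the high wells of P662, 1946 in P758, 2880 in P59 and 2782 in P60. In low wells it had 822.2, 577.3, 1331 and 362.8 CPM, without overlap (log2 difference 2.21 ± 0.27, adjusted p = 9.36e-14). Jund rose by 1.10 ± 0.30 on the log2 scale (adjusted p = 0.0059). Of the other early transcription factors, 4 of 24 were tested and all 4 rose (5.32% of all genes tested did), of which DESeq2 called 2, Ifrd1 and Bhlhe40. Ifrd1 rose by 1.71, Bhlhe40, a circadian and hypoxia regulator, by 1.63, Klf6 by 1.47 and Klf4, a barrier transcription factor, by 1.13. Klf6 had 1413, 935.0, 719.9 and 207.6 CPM in high wells of P662, P758, P59 and P60. Its low wells held 0, 294.4, 332.8 and 171.7 CPM, so in P60 the classes lay close together.

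Feedback inhibitors were the early group with most members measured. All 7 tested of 32 had a positive difference, with a median of 1.80, where 233 of all 489 genes tested had one. Of the 7, 4 rose (5.32% of all genes tested did), also with DESeq2: Dusp1, Socs3, Tnfaip3 and Nfkbiz. Nfkbiz, a nuclear regulator of NF-kB, had 1325, 1727, 1440 and 1453 CPM in high wells of P662, P758, P59 and P60. Its low wells held 0, 671.6, 332.8 and 334.4 CPM, and its high values were the most even of the group (log2 difference 1.80 ± 0.30, adjusted p = 2.64e-07). Socs3, which blocks cytokine receptors, had 530.0, 598.1, 1440 and 249.1 CPM against 0, 137.2, 332.8 and 39.4 CPM in low wells (2.32 ± 0.42, adjusted p = 3.00e-06). Tnfaip3, the ubiquitin editor A20, had a difference of 1.82 ± 0.43 (adjusted p = 8.87e-04). Nfkbia, at 1.01 ± 0.38 (adjusted p = 0.093), and Zfp36l1, at 0.92 ± 0.41 (adjusted p = 0.20), did not pass.

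Stress genes beyond the early lists were also higher. Dnajb1, an inducible HSP40 co-chaperone, had 2385 CPM in the high wells of P662, 1777 in P758, 1440 in P59 and 1495 in P60. Its low wells held 411.1, 551.6, 0 and 357.7 CPM, without overlap (log2 difference 1.96 ± 0.30, adjusted p = 9.61e-09). Hspb1, a small heat shock protein, rose by 1.30 ± 0.37 (adjusted p = 0.0087), a call that DESeq2 did not make. The other 2 of the 4 chaperones tested were Hsp90ab1 at -0.22 and Hspa5 at 0.52, and neither passed. Thus 2 of 4 chaperones rose, where 5.32% of all genes tested did. Ppp1r15a (GADD34), which directs dephosphorylation of eIF2α, was the 1 tested member of 13 integrated stress response genes. It had 706.7, 648.6, 0 and 290.7 CPM against 0, 102.9, 0 and 71.7 CPM in P662, P758, P59 and P60 (2.51 ± 0.42, adjusted p = 1.63e-07).

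The metallothioneins Mt1 and Mt2, metal-binding proteins, rose by 1.40 ± 0.31 (adjusted p = 4.46e-04) and 1.61 ± 0.32 (adjusted p = 2.45e-05). Mt1 was uneven, with 795.0 CPM in the high wells of P662, 2982 in P758, 3600 in P59 and 456.8 in P60. In low wells there were 616.6, 754.5, 332.8 and 402.8 CPM, so the classes overlapped. These paralogs are alike, and the counting may have split or dropped shared reads. Itpkc, an inositol phosphate kinase, rose by 1.63 ± 0.39, and Kdm6b, a histone H3K27 demethylase, by 1.41 ± 0.40.

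Of the splicing and RNA regulators, 6 of 16 were tested and all 6 had a positive difference, where 233 of all 489 genes tested had one. Of the 6, 3 rose (5.32% of all genes tested did). DESeq2 called 1 of them, Ccnl1. Ccnl1, a cyclin of the splicing kinases, had 2562, 1087, 719.9 and 1121 CPM in high wells of P662, P758, P59 and P60. The low wells had 205.5, 391.5, 332.8 and 182.1 CPM, without overlap (2.08 ± 0.32, adjusted p = 9.79e-09). Clk1, a kinase of SR proteins, differed by 1.12 ± 0.37 (adjusted p = 0.037) and Ddx5, an RNA helicase, by 0.93 ± 0.30 (adjusted p = 0.029).

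**Figure D3:**
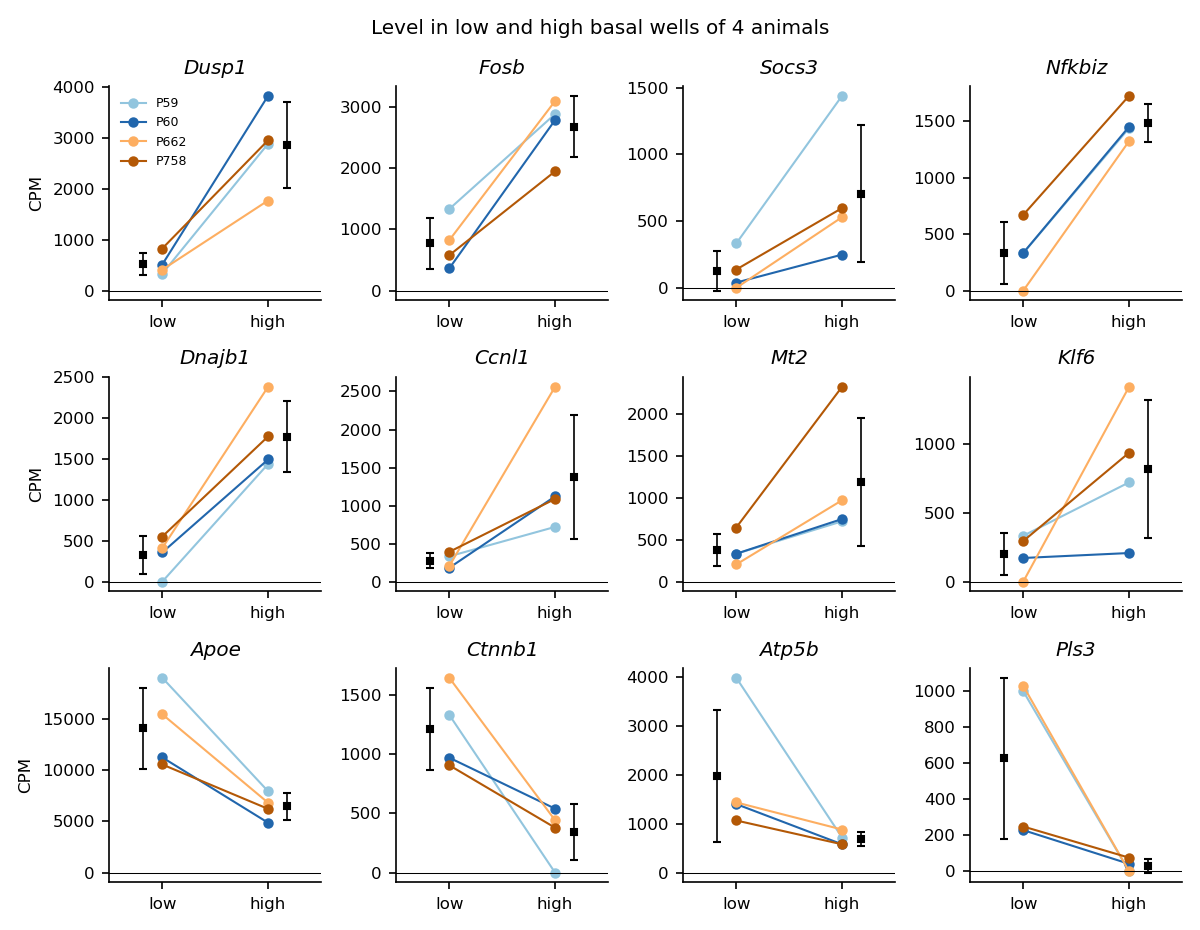
CPM of 12 genes in low and high basal wells, with a line per animal (P59, P60, P662, P758) and black squares for the mean and SD of the 4 animals. Dusp1, Fosb, Nfkbiz, Dnajb1, Ccnl1 and Mt2 have every high value above every low one, and Apoe, Ctnnb1, Atp5b and Pls3 every high value below every low one.

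Fewer genes were lower in high wells. Apoe, the lipid carrier apolipoprotein E, had 6802 CPM in the high wells of P662, 6208 in P758, 7919 in P59 and 4858 in P60. Low wells held 15416, 10529, 18968 and 11215 CPM, without overlap (log2 difference -1.05 ± 0.20, adjusted p = 1.58e-05). Ctnnb1, beta-catenin of adherens junctions and Wnt signalling, had 441.7, 379.1, 0 and 539.8 CPM against 1644, 906.0, 1331 and 969.7 CPM (-1.22 ± 0.33, adjusted p = 0.0040). Atp5b, the beta subunit of ATP synthase, had a difference of -1.05 ± 0.30 (adjusted p = 0.0087). Pls3, an actin-bundling plastin, had 0, 75.8, 0 and 41.5 CPM against 1028, 248.6, 998.3 and 228.5 CPM (-2.18 ± 0.55, adjusted p = 0.0021). Sun2, a nuclear envelope protein, differed by -1.40, and App, the amyloid precursor protein, by -0.92.

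Of 19 hair follicle genes, 2 were tested and both had a negative difference. Postn, a matrix protein of the outer bulge, differed by -1.34 ± 0.35 (adjusted p = 0.0035). Lgr6, at -0.67 ± 0.40 (adjusted p = 0.43), did not pass. The list of 19 took 0.0883%, 0.126%, 0.144% and 0.0831% of counts in high wells of P662, P758, P59 and P60. These shares rest on 10, 150, 2 and 20 counts. In low wells the list took 0.534%, 0.268%, 0.200% and 0.193%. Summed T cell, melanocyte, fibroblast and endothelial lists each stayed at or below 0.0265% in high wells. In those wells 10 of 12 T cell, 5 of 6 melanocyte, 4 of 9 fibroblast and 5 of 7 endothelial genes had no count. Cd3e, Cd3d, Dcn and Col3a1 were among these, and the other members of the lists had counts. The Langerhans list, led by Cd74, took 0.120% in high and 0.0103% in low wells of P758, with 119 of its counts in 1 member. After 9 high and 134 low wells with at least 3 counts and 0.5% of these lists were left out, 39 genes passed. Apoe was then at -0.80 (adjusted p = 0.010), Ctnnb1 at -1.23 (0.010), Pls3 at -2.23 (0.0040), Atp5b at -1.01 (0.034) and Sun2 at -1.52 (0.035). App, Vdr and Gpc4 no longer passed, and Postn was too low to be tested.

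Genes of the basal layer itself showed no call, which in a list of 17 tested genes does not set them apart from all genes tested. Of 17 tested hemidesmosome and matrix genes, 0 passed (7.57% of all genes tested did; 2 had an unadjusted p under 0.05, and DESeq2 called 0), 9 had a positive and 8 a negative difference, and the median was 0.03. Krt15 differed by -0.54 ± 0.20 (adjusted p = 0.086), Col17a1 by 0.32 ± 0.20 (adjusted p = 0.50) and Itgb4 by -0.01 ± 0.22 (adjusted p = 0.99). Krt15 was lower in the high wells of P662, P758 and P60 and higher in those of P59. The secreted factors Igfbp3, Smoc2 and Cxcl14 of another basal program differed by -0.05, -0.03 and 0.22, and Il1r2, a decoy receptor for interleukin-1, by 0.97 (adjusted p = 0.084). Among 11 junction genes all differences were negative (256 of all 489 genes tested were), with a median of -0.27, and Ctnnb1 alone passed. Actin and adhesion targets of serum response factor gave 0 calls in 5 tested of 22. MHC class I genes gave 0 in 7 tested of 14 and translation factors 0 in 8 tested of 19, also with DESeq2. As 7.57% of all genes tested passed, 0 calls in lists this small does not set them apart. At an unadjusted p under 0.05 the counts of the 3 lists were 0, 0 and 1, the last Eif4g2 at 0.71.

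**Figure D4:**
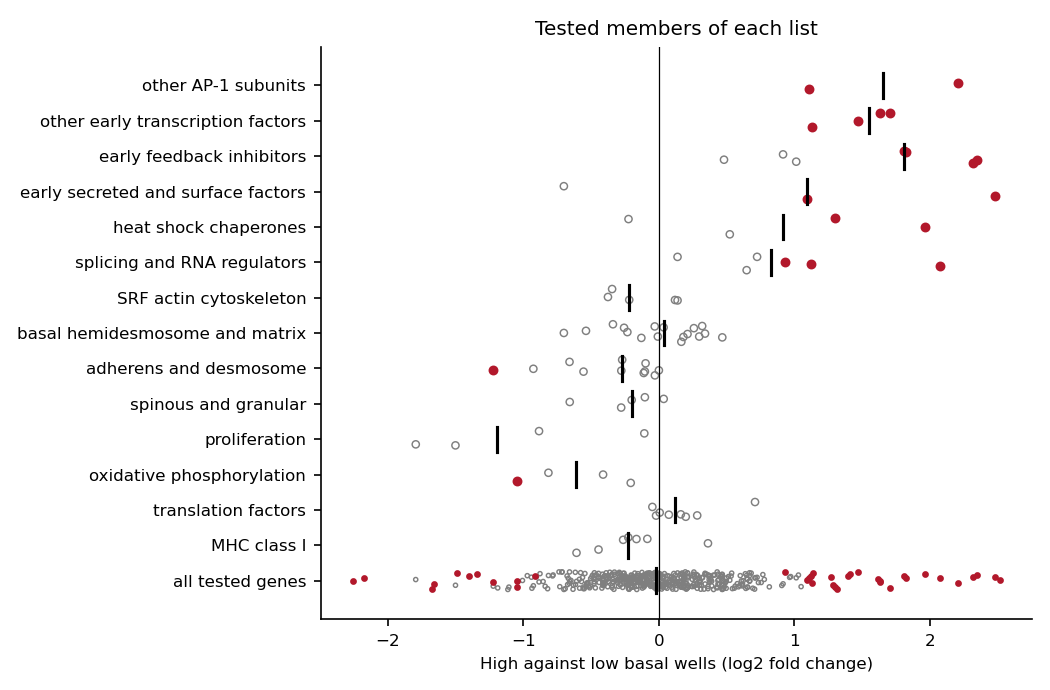
Log2 fold change of high against low basal wells for the tested members of each list, with 1 point per gene, filled red where the adjusted p is below 0.05, and a bar at the median. The early gene lists, of which the secreted factors include Ccn1 and Thbs1, have medians between 1.09 and 1.80, hemidesmosome and matrix genes 0.03 and all 489 genes -0.02.

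Across the range of the selection genes, other early genes changed in steps and not at the threshold alone. In P758, Dusp1 had 202.0 CPM in basal wells with under 0.25% of the 9 genes and 495.2 from 0.25% to 0.5%. It then had 1195 CPM from 0.5% to 1%, 1465 from 1% to 2%, 2172 from 2% to 4% and 4917 above 4%. In P60 the same steps up to 4% gave 227.7, 564.6, 961.6, 1484 and 3820 CPM, the last from 19 wells. Apoe ran the other way, from 13147 CPM in the lowest to 4858 in the highest step of P60, through 10368, 8082 and 6228. In P758 it went from 13486 through 12077, 6474, 9048 and 6588 to 5245 CPM, with 1 reversal. Of the basal markers, Col17a1 lay between 10113 and 12450 CPM in P758 and between 9235 and 12540 CPM in P60. Krt15 had 13187, 14939, 15490, 5850, 9159 and 6855 CPM in P758 and 21550, 27181, 21238, 16563 and 14201 CPM in P60, so it was lower in the upper steps of both. Wells of a step share their animal and plates, so these steps have no test.

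**Figure D5:**
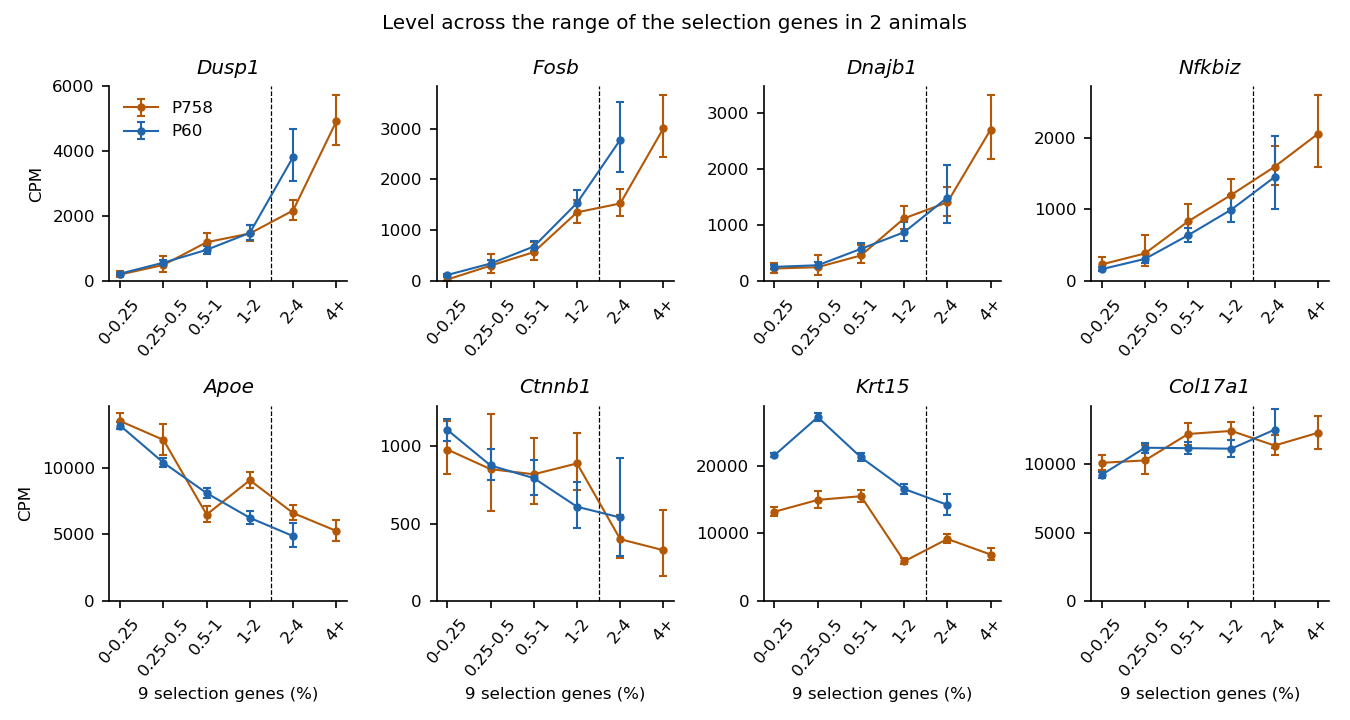
CPM of 8 genes in basal wells of P758 (orange) and P60 (blue), grouped by the percentage of counts from the 9 selection genes, with exact Poisson 95% intervals that cover counting error only. Dusp1, Fosb, Dnajb1 and Nfkbiz are higher in each step to the right in both animals, and the dashed line marks the 2% threshold.

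Old and young members were compared over 2 animals each, P662 and P758 against P59 and P60. Of 288 genes tested, 0 passed (0% of genes tested), with 5 at an unadjusted p under 0.05 and 0 calls by DESeq2. The lowest adjusted p in edgeR was 0.99. The 5 genes with the smallest p were Klf6 at 2.22 ± 0.65 (log2 of old over young), Hspb1 at -1.43 ± 0.50, Macf1 at 1.34, Ezr at 1.68 and Kmt2a at -1.25. Dusp1 differed by -0.34, with a 95% interval from -1.48 to 0.79, and Fosb by -0.04 (-1.03 to 0.96), so changes of about that size in either direction are not excluded by these 4 animals. Leaving out P60 gave 2 calls, Plec and Ahnak, and leaving out P662 gave 2, Mki67 and H2bc3. Each leaves 1 animal in an age, which is then assumed to vary like the other age.

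Whether the contrast of high and low wells itself differed with age was tested as an interaction. Of 489 genes 3 passed (0.613% of genes tested): Top2a, a DNA topoisomerase of dividing cells, Mki67, the proliferation marker Ki-67, and Tubb5, a tubulin. Young high wells held 0 counts of Top2a and Mki67 and 3 of Tubb5, against 1269, 1371 and 1201 CPM in young low wells. P59 held 0 counts of Top2a and Mki67 in both classes, so for these genes the young contrast rests on P60. Against a floor of 3 counts in young high wells (117.8 CPM), young low wells lay 10.8-fold (Top2a) and 11.6-fold (Mki67) higher. This is no lower limit of the fold, because the counts clustered in wells, with 114 of 643 low wells of P60 holding any. In old high wells Top2a had 384.5 and Mki67 430.7 CPM, against 665.2 and 809.0 CPM in old low wells. At least 3 counts of the pair occurred in 0 of 19 high and 60 of 643 low wells of P60 (9.33%), and in 5 of 105 high (4.76%) and 17 of 271 low wells (6.27%) of P758. The exact upper limit for 0 of 19 is 17.6%, so that the wells of P60 do not show a lower share in its members. DESeq2 called 0, and 0 passed with any of the 4 animals left out.

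High spinous wells were the nearest other wells, with 76 found against 376 low spinous wells. In P59, P662 and P758, the animals with at least 5 wells in all 4 groups, the contrast of high and low wells was compared between basal and spinous wells. Of 327 genes tested, 0 passed (0% of genes tested), with 10 at an unadjusted p under 0.05, a lowest adjusted p of 1 and 0 calls by DESeq2. The 5 genes with the smallest p were Krt77, Anxa2, Hspb1, Gdi2 and Dsp, with log2 differences of the contrast, spinous minus basal, of -1.48, -1.01, -1.47, -1.66 and -0.91. Dusp1 differed by -0.33, with a 95% interval from -1.31 to 0.66, Fosb by 0.25 (-0.71 to 1.20) and Dnajb1 by -0.36 (-1.42 to 0.71). For Apoe the difference was 0.71 (-0.10 to 1.51), with 2952 CPM in high and 3351 in low spinous wells of P758. These intervals leave room for differences in either direction.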

How the data were processed

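Footprint counts per gene and well were used as deposited by the authors, as whole numbers over 22416 genes. The submitters' processing notes name the build GRCm38.p6 and the tools fastp, STAR, Bowtie2, featureCounts and UMI-tools, with settings and strand use not given. The members and gene lists were chosen with earlier results of these data known. Wells were summed per animal and class. The 16 genes of the rule were removed before library sizes. edgeR 4.0.16 (R 4.3.3; TMM, filterByExpr, robust quasi-likelihood) used the animal as a block, animals with at least 5 wells per class and Benjamini-Hochberg adjustment at 0.05. The SE was derived from the log2 difference and its F statistic, and the fit was tested on simulated data. P-values cover only these animals. In the edgeR fits the spread between animals was largely pooled over genes, so a small p does not measure 1 gene's own spread. Named genes are up to 15 rises and 15 falls of at least 50 CPM with 1 sign in all animals, or, with fewer than 5 calls, the 5 smallest p. Up to 4 tested members of each list with the highest CPM could be named too, with any other gene chosen after its values were seen. DESeq2 1.42.0, other filters, thresholds, minimum counts, thinning, plates as units and leaving out animals were alternatives. Shares were compared with exact permutation tests in scipy 1.17.1. Doublets were not called. Wells were filled with sorted single cells, but no check excluded doublets. One member held 119 counts of the Langerhans list, and whether it was a doublet was not tested. Plates of Sca-1-negative cells and of the nuclease trial were not used. Some items are not reported here.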

Additional observations from a re-analysis of the deposited data

Results flagged for a closer look

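The young plate of P59 had 35.3% of its basal wells in the high class (6 of 17), far from the other young plates, which had 0 of 2 and 2.69% to 3.10%. It was marked by a test for a single distant value among 5 plates, 3 of which are from 1 animal, and chance marks about 1 in 20 such groups.

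The contrast of high and low wells differed between ages in the interaction test for Top2a, Mki67 and Tubb5. Fitted log2 differences, old minus young, were 10.7, 10.4 and 3.65. The first 2 rest on 0 counts in young high wells, so the fitted sizes depend on the prior count and are no measure of the fold. Tubb5 rests on 3 counts there.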

How the results depend on the processing

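The 37 genes called between high and low wells became 22 with DESeq2, 15 with no filter on low counts, 24 with a mean of at least 20 CPM and 69 with a threshold of 1.5%. Of these calls, 22, 8, 10 and 34 in that order were among the 37. A minimum of 500 counts per well and a threshold of 5% left 2 animals each and gave 0, and wells thinned to 200 counts gave 2 of 32 genes tested, Fosb and Apoe. Leaving out animals gave 6 to 53. A threshold of 3% also left 2 animals and gave 27, 16 of them among the 37. RLE factors, 200 counts, rule genes kept in library sizes, plates as units and other minimum numbers of wells gave 33 to 53. With plates as units, 26 of 38 calls were among the 37, and with at least 10 wells per class 29 of 53. At least 2 wells per class kept the same 4 animals, and at least 10 is the fit without P59. Neither is therefore a separate check. Leaving out wells with Top2a and Mki67 counts, chosen after seeing the data like the marker wells, gave 38. Of the 37 genes, 36 kept their sign in every setting that measured them, and Thbs1 turned to -0.078 at 5%. The 3 age interaction calls became 0 with DESeq2, no filter, a mean of at least 20 CPM and each animal left out (0 to 0). Calls by age were 0 to 2 with animals left out, and 500 counts, 3% and 5% were not run for age because too few animals remained. The age difference in share stayed positive, from 4.37 to 37.6 points with animals left out and from 4.59 to 28.6 otherwise. No paired analysis was possible because the replicate numbers of the labels are plate numbers and not shared between the ages. Depth limits P59 and P662 most.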
